A study of Mus musculus with 44 samples.

Results

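The fragments described here were cut from the inside of the lysine transfer RNA with anticodon CTT (LysCTT) and were sequenced from mouse hypothalamus. They were chosen by their annotation and their summed count: entries of the tRNA fragment (tRF) count table that name no tRNA other than LysCTT, are of an internal or 3′ type, and hold at least 220 counts over 44 libraries. The rule found 67 of the 17051 fragments in the table, with 524183 of 4569025 counts (11.47%). All 67 were of the internal type (i-tRF), which lies within the mature tRNA and holds neither its first nor its last base. The 3′ types had no member: the 40 LysCTT entries of type 3′-tRF held 313 counts, with 48 in the largest (tRF-30-W4R951KHZKL6), and the 6 of type 3′-half held 9. The members just inside the minimum had 230 and 247 counts (tRF-36-W3FJI0E7UM8KSW0 and tRF-49-W3FJI0E7UM8KSWRNLJ12). The entries just outside had 212 and 209 counts (tRF-27-3JVIJMRPFQ4 and tRF-32-6XQ6S8V0J8O9Q). Since the summed count chose the members, their abundance is given as a description.

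The hypothalamus is the brain region that controls feeding and energy use, and the study asked how its small RNAs differ after miR-132 is blocked in obese mice. All mice were C57Bl/6J. AM132 mice (16 libraries) were made obese on a high fat diet over 11 weeks and injected into a vein on 3 consecutive days with 3.3 mg/kg of a locked nucleic acid oligonucleotide of 16 bases complementary to miR-132. AM608 mice (16 libraries) had the same diet and schedule, with an oligonucleotide of 15 bases against the primate miRNA miR-608 as the control. Both obese groups were killed 7 days after treatment. RCD mice (12 libraries) were lean, age-matched and fed regular chow, and no label says that they were injected; in comparisons with them, obesity cannot be told apart from injection. The labels give 4 batches, without saying what a batch is: 4 AM132 and 4 AM608 libraries were in batch 1 and as many in batch 3, the other 8 of each obese group were in batch 2 beside RCD 9 to 12, and RCD 1 to 8 made up batch 4.

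A tRNA brings 1 amino acid to the ribosome, and the LysCTT tRNA reads a lysine codon through its anticodon. Cells cut mature tRNAs, often in the anticodon loop and, under stress, with the ribonuclease angiogenin, which leaves a 5′-half and a 3′-half; shorter and internal pieces also occur, and some tRNA fragments have been found to act on translation or on target RNAs. Gene copies that share an anticodon and differ elsewhere in the tRNA are called isodecoders.

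The 6 fragments of highest summed count differed at their ends and at 1 base, position 29, counted from 1 at the first base of the tRNA. Most of these 6 and some less abundant members are shown 5′ to 3′. Capitals mark position 29 and those anticodon bases (positions 34 to 36) that the fragment holds. The first pair below shares both ends and differs by A29G.
tRF-33-3JVIJMRPFQ5D03: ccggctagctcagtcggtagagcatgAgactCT
tRF-33-3JVIJMRPFQRD03: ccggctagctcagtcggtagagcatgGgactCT
tRF-32-MIF91SS2P4FI3: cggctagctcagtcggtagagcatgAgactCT
tRF-34-K84J83ML5FX2H3: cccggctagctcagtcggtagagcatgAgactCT
tRF-30-3JVIJMRPFQ5D: ccggctagctcagtcggtagagcatgAgac
tRF-31-6XQ6S8V0JUO9E: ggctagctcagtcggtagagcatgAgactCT
tRF-16-W3FJIKB: tcggtagagcatgGga
tRF-26-W3FJIKE7UMD: tcggtagagcatgGgactCTTaatcc
The 5 fragments of the list that end at position 35 lack the last base of the anticodon. The last pair of the list starts further in, within the D arm of the tRNA.

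The 67 fragments fell into 2 families by their first base. The larger family started at positions 2 to 5 and had 53 members; start 3 alone held 23 members and 67.8% of all member counts, start 4 held 18.4%, start 2 held 11.4% and start 5 held 0.831%. The smaller family started at positions 13 to 18 and had 14 members, of which the highest was tRF-16-W3FJIKB with 2460 counts. The 3′ ends were more spread than the starts. Position 35, inside the anticodon, ended 8 members that held 55.2% of the counts, against 11.0% at position 32, 9.42% at 33, 7.86% at 34 and 7.46% at 36. Lengths ran over 16 to 50 nt, and 33 nt was the most frequent with 37.2% of the counts.

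**Figure D1:**
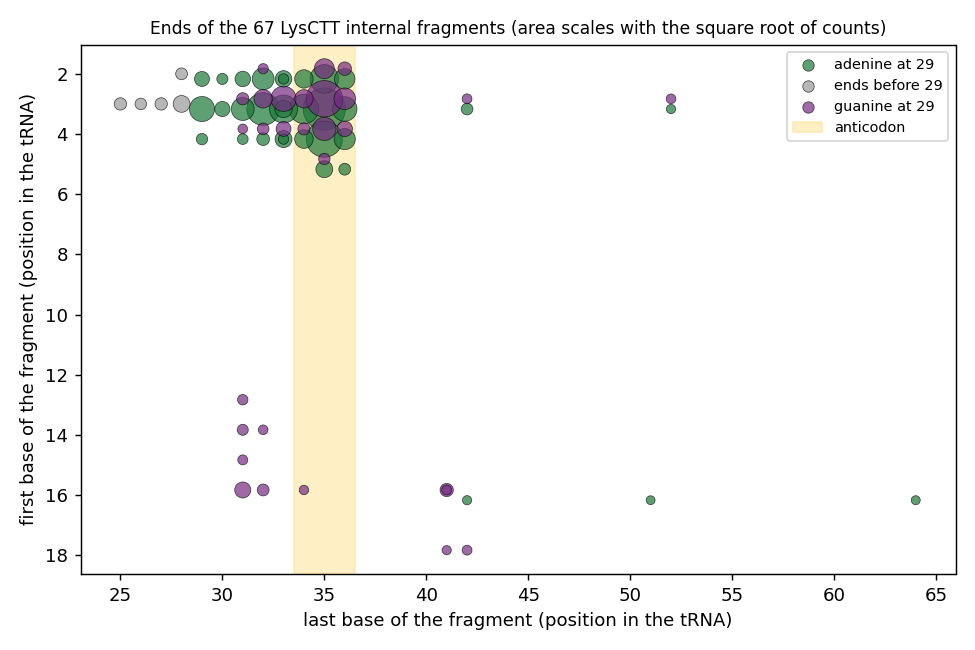
Last base (horizontal axis) and first base (vertical axis) of the 67 fragments as positions in the tRNA, with circle area growing with the square root of the summed counts, colour by the base at position 29 and the anticodon shaded. The large circles lie at starts 2 to 4 and end 35, and the 14 members of the smaller family lie at starts 13 to 18.

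A 5′-half that keeps the first base also ends at position 35. At that end start 3 held 181527 LysCTT counts, start 4 held 73943, start 2 held 30677 and start 5 held 3639, against 346548 for the 5′-half from 1 to 35. The internal fragments with this end thus differ from that 5′-half in lacking bases at the 5′ side. For every 100 counts of the fragment from 1 to 35, a library held 8.35 (RCD 4) to 164 (AM608 13) counts of starts 2, 3 and 4 at end 35. The median over libraries was 52.3 in AM132, 82.6 in AM608 and 50.2 in RCD, with overlapping ranges. In batch 2 alone, the medians were 77.5 in AM132, 78.6 in AM608 and 83.2 in RCD.

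Base 29 split the fragments into 2 forms. The form with adenine at 29 had 33 members and 74.1% of the counts, the form with guanine had 29 members and 24.8%, and 5 members ended before this base. Base 29 lies in the anticodon stem, where it faces base 41. The 11 members long enough to show both had adenine with thymine at 41 in 5, guanine with cytosine in 5, and guanine with thymine in 1. The longest pair of matched ends shows both differences, A29G and T41C, in the fragments from 3 to 52, here with capitals at position 29 and at the anticodon.
tRF-50-3JVIJMRPFQ5DWXH913M8: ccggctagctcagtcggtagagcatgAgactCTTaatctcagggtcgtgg
tRF-50-3JVIJMRPFQRDWXHR13M8: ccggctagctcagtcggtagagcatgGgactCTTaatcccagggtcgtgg
The tRNA names and positions come from the reference behind the count table, which may not be mouse: of its 538 tRNA locations 0 matched a RefSeq GRCm38.p6 mouse tRNA, 2 lie on chromosomes numbered 20 to 22, and 0 of its 13 mitochondrial locations lie at a mouse tRNA gene. The statement that a fragment occurs in LysCTT alone, and the 2 forms read as isodecoders, therefore hold for that reference. RefSeq lists 24 mouse genes named n-TKctt, and the fragments were not compared with their sequences here.

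The 2 families held the forms in different proportion. Adenine was at 29 in 30 of the 53 members that start at 2 to 5, and guanine in 18. Among the 14 members that start at 13 to 18, guanine was at 29 in 11 and adenine in 3. The 3 adenine members end at positions 42, 51 and 64, and the 11 guanine members at positions 31 to 42. The rule took only fragments that name no other tRNA, so a shorter form shared with another tRNA would not be counted. The part of the rule in this difference was not tested. Members of both forms with equal ends made 18 pairs, all in the family that starts at 2 to 5. Of these, 17 had more counts of the adenine form. The ratio of adenine to guanine counts ran over 0.85 to 21, with a median of 3.85. That ratio changed with the end of the fragment. Among fragments that start at 3 it was 12.0 at end 31, 9.75 at end 32, 1.51 at end 33, 6.58 at end 34 and 1.78 at end 35.

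At end 35, start 3 carried the guanine form more than its neighbours did. At end 35 the guanine share was 15.5% at start 1, 19.1% at start 2, 35.9% at start 3, 14.5% at start 4 and 16.8% at start 5. The difference between starts 1 and 3 was present in every library: the guanine share of the pair from 3 to 35 ran over 26.7% to 46.3%, and that of the fragment from 1 to 35 over 9.83% to 26.4%. This difference was not tested. Other ends did not all show more guanine at start 3. The ratio of adenine to guanine counts at starts 3 and 4 was 12.0 and 1.52 at end 31. It was 9.75 and 1.43 at end 32, and 6.58 and 5.36 at end 34, with more guanine at start 4. At end 33 it was 1.51 and 1.66, and at end 36 it was 1.67 and 3.45, with more guanine at start 3. Another 3 members (4180 counts) differed from the form above by T33C, the base just before the anticodon. All 3 end at position 33, so this cytosine is their last base, as in the highest of them.
tRF-31-3JVIJMRPFQ5DD: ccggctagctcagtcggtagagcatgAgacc

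The libraries held 38619 to 221358 tRF counts (median 99503.5) and 3020192 to 5997234 miRNA counts, and the 67 fragments had 366 to 58560 counts in a library. In every library, 4 miRNAs that mark neurons and hypothalamus summed to 181706 to 343471 counts per 1000000 counts (CPM) of the miRNA table. Epithelial and pituitary miRNAs summed to as much as 14133 CPM in AM132 6 and 20097 CPM in AM608 5, against medians of 167 in AM132, 125 in AM608 and 170 in RCD. miR-132-3p, the target of the oligonucleotide, had a median of 708 CPM in AM132 libraries (range 62.3 to 1219), 921 in AM608 libraries (639 to 1243) and 988 in RCD libraries (764 to 1624), so the ranges overlapped. The lowest AM132 value came from AM132 6, and the next was 352.

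The share of these fragments varied more between libraries of 1 group than between groups. They made 0.502% to 18.2% of tRF counts in AM132 libraries (median 9.51%), 0.427% to 26.5% in AM608 libraries (median 11.6%) and 0.583% to 18.7% in RCD libraries (median 4.35%). With 95% Wilson intervals, which cover counting error only, the lowest share was 0.385% to 0.473% (AM608 8), so counting error is small beside these differences. In whole tissue, fewer cells of a type and less RNA per cell cannot be told apart.

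The 3 lowest libraries stood apart and all belong to batch 2: AM132 12 (0.502%), AM608 8 (0.427%) and RCD 10 (0.583%); the next lowest was AM132 8 with 1.36%. In these 3 libraries position 35 ended 14.9% to 17.8% of the member counts, against 23.8% to 60.2% in the other 41. LysCTT fragments of 46 to 50 nt, of any type, took 57.2% (AM132 12), 59.9% (AM608 8) and 34.5% (RCD 10) of the tRF counts, against 0.00803% to 46.2% in the other 41. Neuron marker miRNAs of the 3 libraries summed to 258242 (AM132 12), 243043 (AM608 8) and 237590 (RCD 10) CPM, inside the range of 181706 to 279054 of the other 17 batch 2 libraries. The part of library preparation in these low values was not tested, and results that rest on these libraries are given with and without them.

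**Figure D2:**
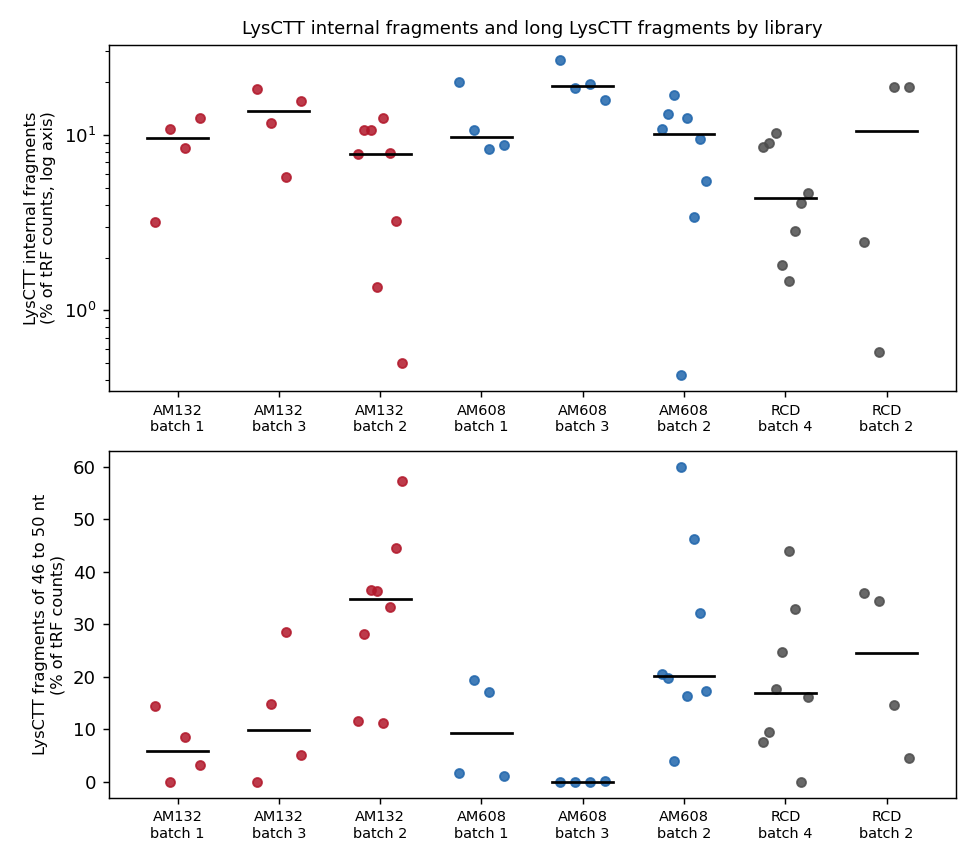
Share of tRF counts of the 67 LysCTT internal fragments (upper panel, log axis) and of LysCTT fragments of 46 to 50 nt (lower panel) in each library, by group and batch, with lines at group medians. The 3 lowest libraries of the upper panel, at 0.427% to 0.583%, are in batch 2, and the 2 highest long-fragment shares, 57.2% and 59.9%, belong to AM132 12 and AM608 8.

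The 2 families varied by very different amounts across libraries. Set against miRNA counts of the same library, the family that starts at 2 to 5 ran over 49.7 to 13153 counts per 1000000 miRNA counts. The family that starts at 13 to 18 stayed within 31.4 to 55.4 counts per 1000000 miRNA counts in all 44 libraries, with means of 41.9 ± 6.87 in AM132 (SD, n = 16), 44.9 ± 7.08 in AM608 (SD, n = 16) and 45.4 ± 5.64 in RCD (SD, n = 12). Its level beside the miRNAs thus stayed in a narrow range, while its share of tRF counts ranged over 0.0574% to 0.542%. In the 3 lowest libraries it made up much of what was left: 0.200% of tRF counts against 0.302% for the larger family in AM132 12, for example.

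The leading pair showed the spread between libraries directly. tRF-33-3JVIJMRPFQ5D03, the adenine form from 3 to 35, had 200 to 52875 CPM of the tRF table (TMM-scaled library sizes; median 22688) in AM132 libraries, 258 to 79927 CPM (median 30468) in AM608 libraries and 241 to 52894 CPM (median 6934) in RCD libraries. tRF-33-3JVIJMRPFQRD03, its guanine counterpart, had 130 to 26862 CPM (median 13775) in AM132, 222 to 44039 CPM (median 18787) in AM608 and 172 to 34654 CPM (median 2930) in RCD. Within batch 2, median CPM of the adenine form was 19485 in AM132, 26921 in AM608 and 23664 in RCD. That of the guanine form was 13288 in AM132, 18787 in AM608 and 15791 in RCD. All 3 groups overlapped for both, and AM132 12, AM608 8 and RCD 10 were lowest in their groups for both.

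**Figure D3:**
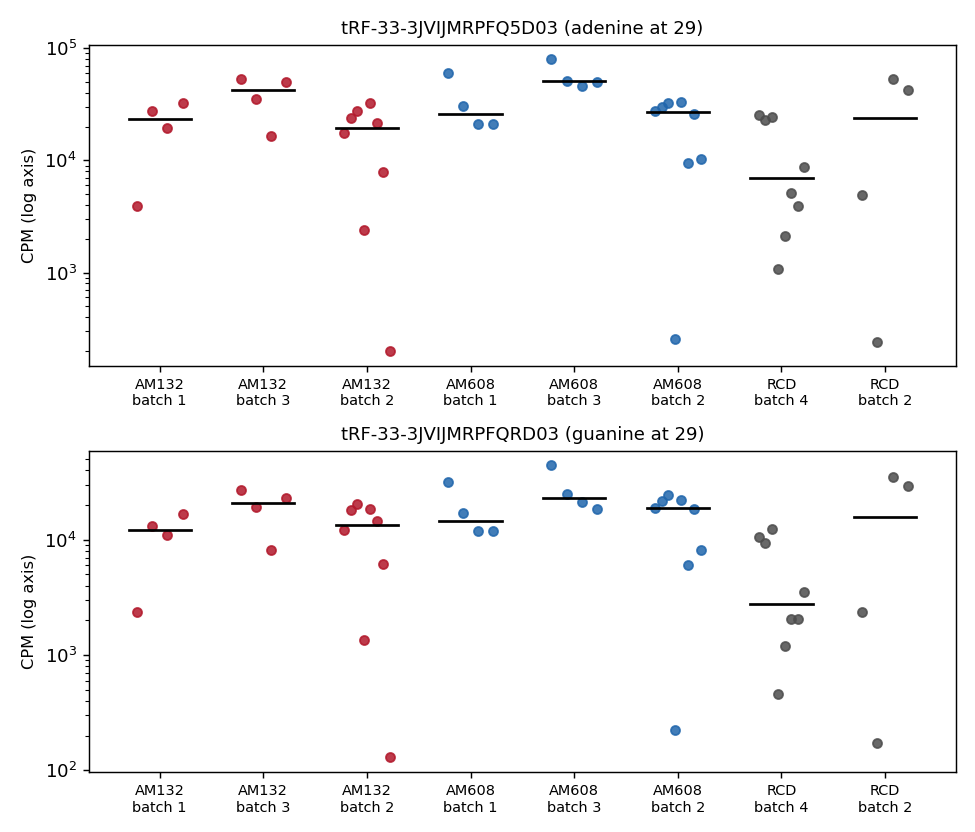
CPM on a log axis of the 2 fragments from 3 to 35, with adenine (upper panel) or guanine (lower panel) at position 29, in each library by group and batch; lines are medians. The forms share their pattern, with AM608 13 highest for both (79927 and 44039 CPM) and AM132 12, AM608 8 and RCD 10 lowest in their groups.

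No fragment passed the test between AM132 and AM608. With batch as a term, edgeR's quasi-likelihood test and Benjamini-Hochberg adjustment called 0 of 494 tested tRFs (0%), among them 0 of the 50 members that passed the low-count filter; DESeq2 also called 0. At an unadjusted p under 0.05 there were 0 members and 33 of all tRFs. The log2 fold change of AM132 over AM608 was below 0 in 46 of the 50 members, with a median of −0.44, against 0.02 over all tested tRFs. Fragments cut from 1 tRNA in 1 library move together, so the 46 are not independent observations. By family, 44 of 46 members that start at 2 to 5 were below 0 (median −0.46), against 2 of 4 that start at 13 to 18 (median −0.02).

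The differences of single fragments were small beside the spread between libraries. tRF-33-3JVIJMRPFQ5D03 had a log2 fold change of −0.48 ± 0.44 (SE; adjusted p = 0.727, edgeR, n = 16 each). tRF-33-3JVIJMRPFQRD03 had −0.51 ± 0.43 (adjusted p = 0.727, edgeR). The members of smallest p were tRF-28-3JVIJMRPFQDS at −0.57 ± 0.30, tRF-29-3JVIJMRPFQHX at −0.55 ± 0.31 and tRF-26-MIF91SS2P4B at −0.72 ± 0.41; edgeR's adjusted p was 0.642 for all 3. All 3 end ahead of the anticodon. tRF-28-3JVIJMRPFQDS had 60.0 to 1164 CPM (median 337) in AM132 and 70.3 to 1497 CPM (median 488) in AM608. The other abundant members had −0.34 ± 0.56 (tRF-32-MIF91SS2P4FI3), −0.54 ± 0.40 (tRF-30-3JVIJMRPFQ5D), −0.52 ± 0.42 (tRF-32-3JVIJMRPFQ5D5) and −0.40 ± 0.42 (tRF-34-K84J83ML5FX2H3), all on the log2 scale with their SE.

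The direction was the same within each batch, and no member was called in any. The median over tested members was −0.50 in batch 1 alone, −0.38 in batch 2 alone and −0.57 in batch 3 alone, and −0.44 without AM132 12 and AM608 8. The test of a difference in the AM132 effect between batches called 5 of 494 tRFs (1.01%), all LysCTT 5′ fragments, and 0 of the 50 members in edgeR, with 0 members at an unadjusted p under 0.05. Beside these fragments, the LysCTT 5′-halves and 5′-tRFs had a median of 0.26 in AM132 over AM608 (30 tested). The internal and 3′ fragments of the other lysine tRNA, LysTTT, had −0.53 (19 tested) and those of the glutamate tRNAs −0.10 (58 tested). All other fragments of the internal and 3′ types had 0.02 (221 tested). None of the tRFs in those lists passed the test, and the difference between lists was not tested.

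**Figure D4:**
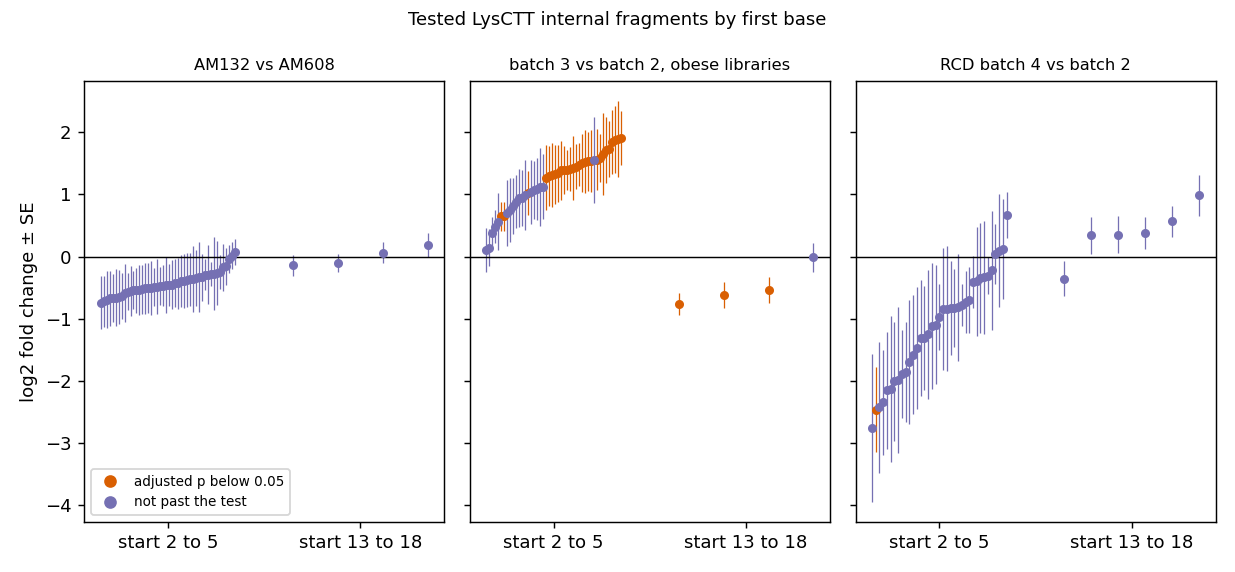
Log2 fold change with its SE of each tested member for AM132 over AM608, batch 3 over batch 2 of the obese libraries, and RCD batch 4 over batch 2, split by first base; orange marks an adjusted p below 0.05 in edgeR. No member passes in the first panel, 28 pass above 0 and 3 below 0 in the second (the 3 lie above 0 when libraries are scaled by their miRNAs), and 1 passes in the third.

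Against lean mice, with batch 2 alone and 4 RCD libraries, no member passed either. These comparisons were less precise than AM132 over AM608. For tRF-33-3JVIJMRPFQ5D03 the log2 fold change was −0.56 ± 1.06 (SE) in AM132 over RCD and −0.23 ± 1.07 in AM608 over RCD. Its SE in AM132 over AM608 was 0.44. AM132 over RCD gave 0 of 575 called (0%) in edgeR, with 0 of 53 tested members, and AM608 over RCD gave 0 of 575 (0%) with 0 of 53. At an unadjusted p under 0.05 there were 2 members in AM132 over RCD (21 of all tRFs) and 1 in AM608 over RCD (28 of all). DESeq2 called 0 members in both, and 1 of all tRFs in AM608 over RCD. The member median was −0.50 for AM132 over RCD (0.06 over all tRFs) and −0.15 for AM608 over RCD (0.09 over all tRFs); these comparisons share the same RCD libraries.

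The 4 RCD libraries of batch 2 disagreed among themselves. tRF-33-3JVIJMRPFQ5D03 had 200 to 32642 CPM (median 19485) in AM132 and 258 to 33208 CPM (median 26921) in AM608 libraries of batch 2, against 4940 CPM in RCD 9, 241 in RCD 10, 52894 in RCD 11 and 42387 in RCD 12. RCD 11 and RCD 12 lay above every obese library of the batch and RCD 10 near the lowest. The member median of AM132 over RCD was −0.80 without RCD 9, −0.84 without RCD 10, −0.01 without RCD 11 and −0.18 without RCD 12. That of AM608 over RCD was −0.43 without RCD 9, −0.46 without RCD 10, 0.24 without RCD 11 and 0.12 without RCD 12. Without the 3 lowest libraries (AM132 12, AM608 8 and RCD 10) it was −0.62 for AM132 over RCD and −0.25 for AM608 over RCD.

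The members of smallest p in both started at position 5. tRF-31-6XQ6S8V0J8O9E, the guanine form from 5 to 35, had a log2 fold change of −1.89 ± 0.71 in AM132 over RCD (adjusted p = 0.994, edgeR) and −1.66 ± 0.71 in AM608 over RCD (adjusted p = 0.839, edgeR). Its adenine counterpart tRF-31-6XQ6S8V0JUO9E had −1.71 ± 0.80 in AM132 over RCD and −1.49 ± 0.80 in AM608 over RCD. The adenine fragment had 47.1 to 664 CPM (median 209) in AM132 and 46 to 780 CPM (median 408) in AM608 libraries of batch 2, against 99.4 CPM in RCD 9, 80.3 in RCD 10, 2638 in RCD 11 and 1076 in RCD 12. RCD 11 and RCD 12 lay above every obese library of the batch, and RCD 9 and RCD 10 among the lowest. Without RCD 11, the adenine fragment was at −0.59 in AM132 over RCD and −0.32 in AM608 over RCD, and the guanine fragment at −0.90 in AM132 over RCD and −0.64 in AM608 over RCD. tRF-32-6XQ6S8V0JUO9Q, which ends 1 base later, had −1.71 in AM132 over RCD and −1.46 in AM608 over RCD.

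Whether members were called between batches depended on the contrast. Called members were 31 of 50 in batch 3 over batch 2 and 0 of 50 in batch 1 over batch 2. In RCD batch 4 over batch 2, 1 of 43 was called. The shares of all tRFs called were 57.1%, 24.1% and 9.8% in the same order. Among obese libraries, edgeR called 282 of 494 tRFs (57.1%) between batch 3 and batch 2, 26.1% higher and 31% lower in batch 3. Of the 50 tested members 28 were higher in batch 3 and 3 were lower, with a median log2 fold change of 1.29 against −0.03 over all tRFs. The 28 higher members were all among the 46 tested that start at 2 to 5 (median 1.32). The 3 lower ones were all among the 4 tested that start at 13 to 18, and they turned to 0.12 to 0.31 (adjusted p = 0.121 to 0.457, edgeR) when libraries were scaled by their miRNA counts, under which 47 members were higher and 0 lower. Without AM132 12 and AM608 8 the counts were again 28 and 3. That scaling moves the median of all tRFs to 0.83. The split of all called tRFs moved with the scaling too, with 129 higher and 153 lower here, 176 higher and 111 lower under size factors of the RLE type, 99 higher and 176 lower under total counts, and 306 higher and 51 lower under miRNA counts. In this contrast the LysCTT 5′ fragments had 7 higher and 8 lower of 30, and the LysTTT internal and 3′ fragments 7 and 4 of 19. The glutamate internal and 3′ fragments had 23 and 10 of 58, and all other fragments of these types 31 and 109 of 221.

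Among the members, the smallest p in batch 3 over batch 2 belonged to tRF-31-6XQ6S8V0JUO9E (log2 fold change 1.90 ± 0.43, adjusted p = 0.00062, edgeR). It had 254 to 3954 CPM (median 1152) in batch 3 and 46 to 780 CPM (median 320) in obese batch 2 libraries, which overlap. The other members that rose most clearly by p were tRF-29-K84J83ML5FJS at 1.40 ± 0.32, tRF-28-3JVIJMRPFQDS at 1.48 ± 0.35, tRF-31-6XQ6S8V0J8O9E at 1.59 ± 0.38, tRF-30-K84J83ML5FX2 at 1.45 ± 0.36, tRF-29-3JVIJMRPFQHX at 1.41 ± 0.36, tRF-29-MIF91SS2P4ER at 1.74 ± 0.45, tRF-26-3JVIJMRPFQ0 at 1.40 ± 0.39, tRF-32-6XQ6S8V0JUO9Q at 1.85 ± 0.52 and tRF-30-MIF91SS2P4FI at 1.88 ± 0.54, with adjusted p of 0.000686 to 0.00441 in edgeR. All of these start at 2 to 5, and 7 of the 9 end before the anticodon. tRF-33-3JVIJMRPFQ5D03 was at 1.27 ± 0.52 (adjusted p = 0.0374, edgeR; 0.0636 under total counts) and tRF-33-3JVIJMRPFQRD03 at 0.76 ± 0.52 (adjusted p = 0.203, edgeR).

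The lower members were short pieces of the smaller family. tRF-16-W3FJIKB had 270 to 514 CPM (median 347) in batch 3 and 375 to 1036 CPM (median 586) in obese batch 2 libraries, a log2 fold change of −0.77 ± 0.18 (adjusted p = 0.000956, edgeR). tRF-18-1SS2P4DX had −0.63 ± 0.21 (adjusted p = 0.0137, edgeR) and tRF-17-W3FJIK1 had −0.54 ± 0.21 (adjusted p = 0.0298, edgeR). All 3 carry guanine at 29 and turn to values above 0 under scaling by miRNA counts. The calls of tRF-18-1SS2P4DX and tRF-17-W3FJIK1 were also lost under RLE factors (adjusted p = 0.128 and 0.196, edgeR).

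The forms also differed in how many passed. In batch 3, 21 of 27 tested adenine members were higher, against 5 higher and 3 lower of 18 guanine members. Over all tested tRFs 26.1% were higher and 31% lower. The difference between forms was not tested, and it mixes form with family. All 4 tested members that start at 13 to 18 carry guanine, and they hold the 3 lower calls and 0 of the higher ones. Batch 1 over batch 2 gave 119 of 494 called (24.1%; 7.09% higher and 17% lower in batch 1) and 0 of 50 members in edgeR, with 3 members at an unadjusted p under 0.05 and 5 called by DESeq2. All called tRFs split into 35 higher and 84 lower, against 71 higher and 76 lower under RLE factors, 164 higher and 57 lower under miRNA counts, and 84 higher and 82 lower in DESeq2. Its member median was 0.41, with 27 of 27 adenine members above 0 (median 0.60) and 12 of 18 guanine members (median 0.08). The 18 guanine members again include the 4 that start at 13 to 18, of which 2 were above 0. The smallest p among members was again that of tRF-31-6XQ6S8V0JUO9E, at 1.04 ± 0.44 (adjusted p = 0.0826, edgeR). The next were tRF-33-K84J83ML5FX2D5 at 1.02 and tRF-35-K84J83ML5FX24Z at 0.94 on the log2 scale.

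The guanine share differed by batch, which was not tested. Among member counts that show base 29 it was 18.1% to 24% (median 22%) in obese batch 3 libraries, against 27.4% to 55.0% (median 30.4%) in obese batch 2 libraries, with no overlap. In obese batch 1 libraries it was 21.7% to 33.7% (median 25.3%), which overlaps batch 2. In RCD libraries it was 21% to 41.8% (median 27%) in batch 4 and 28.5% to 52.0% (median 30.3%) in batch 2, which overlap. AM132 and AM608 had almost the same share, at medians of 28.3% in AM132 and 27.7% in AM608. The top shares, 55.0% in AM132 12, 52.0% in AM608 8 and 52.0% in RCD 10, were those of the libraries with few fragments of the larger family; without the 3, batch 2 ran over 27.4% to 37.4%. The pair from 3 to 35 alone showed the same order, with a guanine share of 26.7% to 35.5% in obese batch 3 libraries and 36.2% to 46.3% in obese batch 2 libraries.

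**Figure D5:**
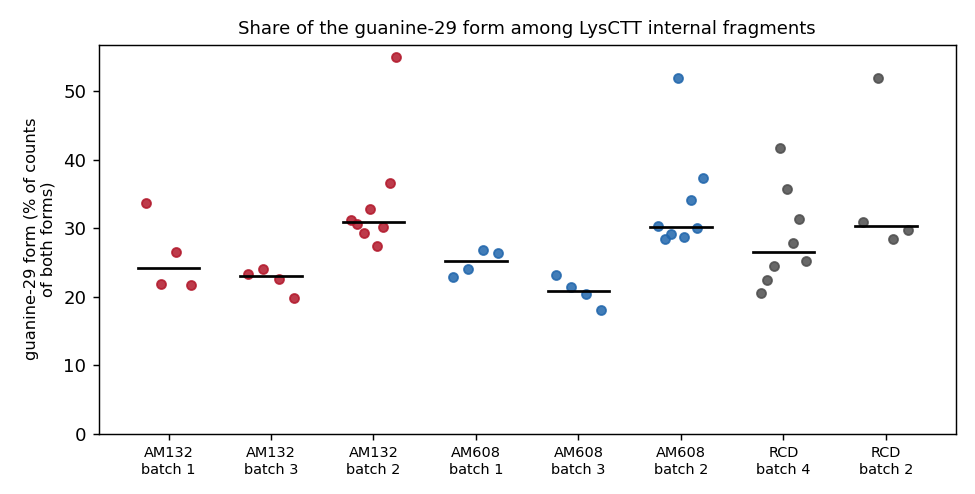
Guanine share at position 29 among member counts that hold this base, in each library by group and batch; lines are medians. Obese batch 3 libraries lie at 18.1% to 24%, below the 27.4% to 55.0% of obese batch 2 libraries.

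Lean libraries gave a further view of batch. Between RCD batch 4 and RCD batch 2, 50 of 510 tRFs were called (9.8%; 4.51% higher and 5.29% lower in batch 4) in edgeR, 1 of them among the 43 tested members. All calls split into 23 higher and 27 lower, against 21 higher and 11 lower under total counts. The called member was tRF-31-6XQ6S8V0JUO9E, with 66.9 to 287 CPM (median 182) in batch 4 and the 4 batch 2 values given above (log2 fold change −2.47 ± 0.69, adjusted p = 0.0381, edgeR). Its call was lost without RCD 11 (−1.29, adjusted p = 0.263, edgeR), without RCD 12 (−2.50, adjusted p = 0.0828, edgeR) and under scaling by total counts (−1.99, adjusted p = 0.0662, edgeR). Without RCD 10, edgeR called 3 members. The member median was −0.83, against −0.08 over all tRFs, with −0.97 in the family that starts at 2 to 5 and 0.36 in the family that starts at 13 to 18. The members of next smallest p were tRF-25-RPFQRDWXHR at 0.98 and tRF-30-MIF91SS2P46I at −2.35 on the log2 scale, neither past the test.

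Members with low counts were not all tested. The filter left out 17 of the 67 in the fits of obese libraries, 14 in those of batch 2 and 24 in that of RCD libraries, and those left out had at most 488 summed counts in the obese and batch 2 fits and 981 in the RCD fit. Members that passed are therefore mostly the more abundant ones, and the counts above do not speak for the rest. The filter did not follow the summed count strictly. In the RCD fit tRF-19-W3FJIKE5 (293 counts) was tested and tRF-29-MIF91SS2P4ER (981 counts) was not.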

How the data were processed

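Small RNA was measured in whole hypothalamus from 44 libraries (RNA by miRNeasy, NEBNext small RNA libraries and Illumina sequencing, per the labels' protocols). The authors deposited raw read counts per tRNA fragment and per miRNA; the submitters' processing notes name FastQC, and the aligner and genome build are not given in the sources used here. Positions are those of the count table. None of its 538 tRNA locations matched a RefSeq GRCm38.p6 mouse tRNA, so its tRNA reference may not be mouse, tRNA names hold for that reference, and no coordinates are printed.

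Counts were tested as deposited with edgeR 4.0.16 (filterByExpr, minimum count 10 and total 15; TMM scaling; quasi-likelihood F test; Benjamini-Hochberg adjustment over all tested tRFs; threshold 0.05) in R 4.3.3, with limma 3.58.1 installed for edgeR and DESeq2 1.42.0 as an alternative. AM132 was compared with AM608 with batch as a term, in the same fit as batches 1 and 3 with batch 2; obese groups were compared with RCD in batch 2 alone, and RCD batch 4 with batch 2. The printed CPM use TMM-scaled library sizes. No fit imputed a sample. The scripts were tested on simulated data.

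Libraries hold 38619 to 221358 tRF counts, so counting error is small for abundant fragments; Wilson intervals cover counting error only. The labels number the samples without saying whether each is a separate mouse, so p-values measure the spread between these samples. The smallest chi-square per degree of freedom between libraries of a group was 5.92, so no library looked like a copy of another.

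Fragments were named by rule: the 6 of highest summed count, the 3 of smallest p in each comparison, up to 10 past the test in each direction, and those around the minimum of 220. The others shown by sequence were chosen after their values were seen. Members and lists were chosen with earlier results of these data known. Alternatives were RLE, total and miRNA scaling, DESeq2, other filters, libraries left out, single batches and the replicate number as a block.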

Additional observations from a re-analysis of the deposited data

Results flagged for a closer look

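In groups of 4 to 10 libraries, Dixon's ratio (the gap of the most extreme library to its neighbour over the range of the group) passed the 95% critical value in 12 of the 72 groups tested (16.7%); chance flags about 1 in 20 groups, and the measures overlap. AM608 8 stood apart from AM608 batch 2 in the log2 share of LysCTT internal fragments (ratio 0.563), in the guanine share at position 29 (0.622), in the share ending at position 35 (0.942), and in the log2 CPM of tRF-33-3JVIJMRPFQ5D03 (0.741), tRF-33-3JVIJMRPFQRD03 (0.703), tRF-32-3JVIJMRPFQ5D5 (0.661) and tRF-34-K84J83ML5FX2H3 (0.849). AM132 12 stood apart from AM132 batch 2 in the guanine share (0.666), in the share ending at 35 (0.575) and in tRF-34-K84J83ML5FX2H3 (0.558). RCD 10 stood apart from RCD batch 2 in the guanine share (0.899). AM132 1 stood apart from AM132 batch 1 in the share ending at 35 (0.887), with 44.5% against 55.0% to 56.3% in the other 3 libraries. Its cause was not tested.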

How the results depend on the processing

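The count of 0 called LysCTT internal fragments in AM132 over AM608 held under the 16 alternatives run. Without any low-count filter, AM132 over RCD gave 1 call and the test of the AM132 effect by batch gave 1. For batch 1 over batch 2, the count of 0 became 2 under RLE scaling, 10 under miRNA scaling, 5 with DESeq2, 3 with no filter, 1 without AM132 5, AM132 6 and AM608 5 (high in other-tissue miRNAs), 2 when fragments of 46 to 50 nt were removed, and 1 without the libraries AM132 12, AM608 8 and RCD 10 (an alternative chosen after seeing the data). For batch 3 over batch 2, the count of 31 became 47 under miRNA scaling. For RCD batch 4 over batch 2, the count of 1 became 0 under total scaling, 2 under miRNA scaling, 3 with DESeq2, 23 with no filter, 2 at a minimum of 10 CPM, and 0 to 3 when 1 RCD library was left out: 3 without RCD 9, 3 without RCD 10, and 0 without RCD 11 or RCD 12. Some settings, such as the filters, also changed how many members and tRFs were tested. These counts are therefore not shares and do not show an excess of members over all tRFs. The cause was not tested.

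Over all tRFs, batch 1 over batch 2 had 119 calls, against 221 under miRNA scaling, 201 with no filter and 261 at 10 CPM. Batch 3 over batch 2 had 282 calls, against 645 with no filter and 556 at 10 CPM. RCD batch 4 over batch 2 had 50 calls, against 32 under total scaling, 93 with DESeq2, 109 with no filter and 28 without RCD 12. The AM132 effect by batch had 5 calls, against 1 under miRNA scaling, 21 with no filter, 9 at 10 CPM, 0 without AM132 5, AM132 6 and AM608 5, and 0 when fragments of 46 to 50 nt were removed. Other scalings moved the median log2 fold change of all tRFs by over 0.1: in batch 1 over batch 2 (0.063) to 0.208 under RLE and 0.513 under miRNA, in batch 3 over batch 2 (−0.03) to 0.208 under RLE, −0.255 under total and 0.828 under miRNA, in RCD batch 4 over batch 2 (−0.084) to 0.323 under total, in AM132 over RCD (0.055) to −0.148 under RLE and −0.064 under total, and in AM608 over RCD (0.092) to −0.026 under RLE.

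In batch 1 over batch 2, leaving out the 4 libraries with few lysine 5′-halves (AM132 8, AM132 12, AM608 8 and RCD 10) gave −0.348 for tRF-33-3JVIJMRPFQRD03 and −0.08 for tRF-30-3JVIJMRPFQ5D, and leaving out the 3 lowest gave −0.185 for tRF-33-3JVIJMRPFQRD03. In batch 3 over batch 2, miRNA scaling gave 0.124 for tRF-16-W3FJIKB, 0.244 for tRF-18-1SS2P4DX and 0.314 for tRF-17-W3FJIK1. Leaving out 1 RCD library at a time moved AM132 over RCD to −0.996 to 0.049 for tRF-33-3JVIJMRPFQ5D03, −0.947 to 0.092 for tRF-33-3JVIJMRPFQRD03 and −0.477 to 0.33 for tRF-34-K84J83ML5FX2H3, each lowest without RCD 10 and highest without RCD 11. It moved AM608 over RCD to −0.657 to 0.43 for tRF-33-3JVIJMRPFQ5D03, −0.56 to 0.517 for tRF-33-3JVIJMRPFQRD03, −0.641 to 0.439 for tRF-30-3JVIJMRPFQ5D, −0.57 to 0.478 for tRF-32-3JVIJMRPFQ5D5 and −0.001 to 0.843 for tRF-34-K84J83ML5FX2H3, with the same libraries at both ends. In a fit of all 44 libraries, tRF-34-K84J83ML5FX2H3 was at 0.041 in AM132 over RCD and tRF-33-3JVIJMRPFQRD03 at 0.01 in AM608 over RCD. In RCD batch 4 over batch 2, tRF-34-K84J83ML5FX2H3 was at 0.046 under total scaling and at −0.645 to 0.195 with 1 RCD library left out. None of the values in this paragraph passed the test.

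AM132 and AM608 share replicate numbers, but deviations of same-numbered libraries correlated at −0.594 to 0.745 (16 pairs, 7 over 0.1), and 3 AM132 libraries correlated best with their own number, so the numbers are not taken to pair the samples. The replicate block gave 0 called fragments in AM132 over AM608, AM132 over RCD and AM608 over RCD, with member medians of −0.455 in AM132 over AM608, −0.667 in AM132 over RCD and −0.276 in AM608 over RCD. No paired analysis was possible for the batch contrasts because they share no numbers.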
